A study of Rattus norvegicus with 34 samples.

Results

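The response of the maternal liver to retinoic acid late in pregnancy was measured on 2 two-colour cDNA arrays, each of which set liver RNA of treated pregnant Wistar rats (Cy5) against liver RNA of vehicle-treated rats (Cy3) on gestational day 20. A gene was included where its probe lay above the local background in at least 1 channel on both arrays, which left 146 of the 232 named probes of this array type. The series holds 34 arrays in 15 groups of tissue, day and treatment, with retinoic acid or the calcium sensitizer EMD 82571 against vehicle. The label of the treated channel gives 20 mg retinoic acid, whereas the protocol text gives 12 mg/kg/day, and dosing windows of gestational days 6 to 11 and 6 to 17. The array titles carry the span from day 6 to day 20, so day 20 was read as the day of sampling and the dosing of these animals was not settled further.

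The groups set beside it were maternal liver on day 12 and embryo liver on day 20 with the same label of 20 mg retinoic acid, and maternal liver on day 20 with EMD 82571 at 50 or 150 mg/kg/day. All were Wistar and all were read against vehicle RNA on the same array. A design of 5 control and 5 treated replicates is stated for the series, but it is not given whether these 2 arrays carry RNA of separate animals, of pools or of 1 extract. The p-values therefore measure a spread between arrays of the same group, which may be technical. This spread was pooled over all groups of the series and is not that of these 2 arrays alone. Whole liver RNA was used, in which fewer cells of a type and less RNA per cell cannot be told apart.

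Retinoic acid is the active acid form of vitamin A. It binds the retinoic acid receptors, which pair with retinoid X receptors on DNA and switch genes near their response elements on or off, and the retinoid X receptors also pair with the receptors for fatty acids, bile acids and foreign compounds. The liver stores most of the body's vitamin A, makes bile acids from cholesterol, and carries most of the cytochrome P450 enzymes that oxidize retinoids, steroids and drugs.

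Retinoic acid receptor beta (Rarb) is the textbook target of retinoic acid, through a response element in its own promoter made of a repeated element with a short spacer. The RefSeq promoter of rat Rarb (build GRCr8, chr15:11336142-11336441, plus strand, from 250 bases before to 50 bases after the annotated start) is shown because it holds that repeat. The capitals mark both copies, GGTTCA and AGTTCA, separated by ccgaa.
Rarb: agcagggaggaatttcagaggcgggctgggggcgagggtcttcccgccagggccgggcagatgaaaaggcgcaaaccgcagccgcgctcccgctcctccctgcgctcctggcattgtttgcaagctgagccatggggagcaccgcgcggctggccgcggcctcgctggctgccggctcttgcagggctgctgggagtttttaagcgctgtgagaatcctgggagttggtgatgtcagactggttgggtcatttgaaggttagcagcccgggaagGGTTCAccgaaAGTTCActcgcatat
The motifs AGGTCA and AGTTCA were searched on both strands, and the window holds AGTTCA 1 time and AGGTCA 0 times. AGTTCA or its reverse complement was present in 14.5% of the 33469 promoters of this table, and AGGTCA in 16.2%. The repeat of GGTTCA and AGTTCA with any bases in a spacer of this length, which overlaps AGTTCA and was added after the sequence had been read, was present in 3 of them, or 0.00896%. These matches describe the letters of the window and are no measure of binding.

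Of 229 probes tested over the whole array set, 70 passed an adjusted p of 0.05 (limma, Benjamini-Hochberg), or 30.6%, with 35 higher (15.3%) and 35 lower (15.3%) after retinoic acid. Among the 146 included genes, 30 were higher and 27 lower. The 83 tested probes that did not meet the background criterion held 5 called higher and 8 called lower. Only 120 of the 146 were above background in both channels on both arrays, and of these 29 were higher and 23 lower, with a median log2 ratio of 0.01 against -0.05 over all probes tested. For 20 genes the treated channel was not above background on either array, and for 0 genes was the vehicle channel alone in this state. The treated channel was the dimmer one, with a median signal of 1.20 and 1.21 times the local background on the 2 arrays, against 1.58 and 1.65 in the vehicle channel. The count of 70 fell to 34 without the first array, 39 without the second, and 46 where the day-12 groups of the fit were not split by array batch, the set of arrays that share a number in their titles. Named genes that lost their call both without the first and without the second array were Cyp2c12, Serpina1, Rfc2, Cyp2c6v1, HSST, Rarb, Cebpb, Lamc1 and Itgb3. Those that lost it only without the first were Top2a, Col4a1, Timp2, Tgfbr1, the brighter Ppara probe and both Col18a1 probes, and those only without the second Ugt2b, UGT1A6, Csf2, Fgf14, Itga9 and Bmp7. Changes were small: 100 of the 120 genes lay within 0.25 of 0 on the log2 scale, 32 of them called, and 10 lay beyond 0.5.

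Both arrays gave nearly the same ratios. The 2 values of a gene differed by a median of 0.05 on the log2 scale, and across the 146 genes, which are not independent replicates, the arrays correlated with r = 0.93. Both values had the same sign in 116 genes. At the edge of the background criterion, 21 probes had a share of exactly 0.5 of their spots above background on the weaker array and were included, while 58 had 0.25 and were not. Dyes were never swapped, so any preference of a probe for Cy5 or Cy3 is part of its ratio. The offset of 50 added to each background-corrected signal shrinks the ratios of dim probes: with an offset of 10, Ppard gave 1.01 in place of 0.65 and Lama3 -1.35 in place of -0.87, while the brighter Cyp7a1 gave -1.33 in place of -1.26.

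**Figure D1:**
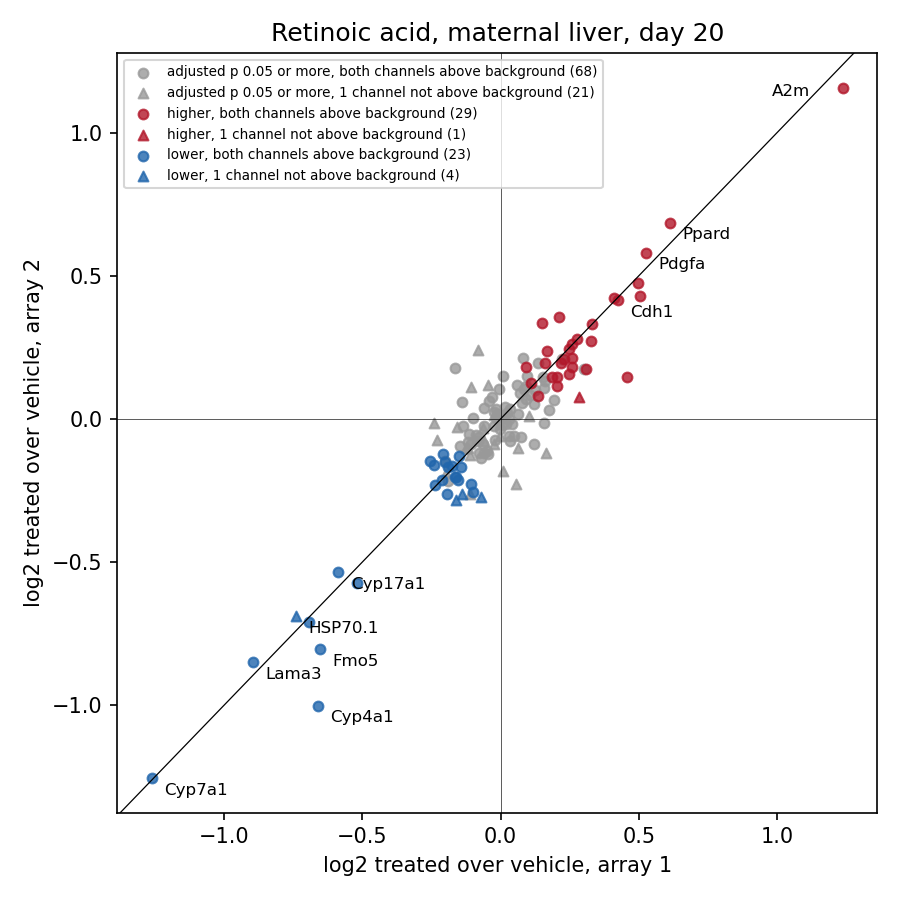
Log2 ratio of treated over vehicle on array 1 (x axis) against array 2 (y axis) for the 146 genes, with the line of equal values. Points are coloured by direction where the adjusted p was under 0.05, and triangles mark genes with a channel not above background on at least 1 array. Cyp7a1 and A2m lie at the ends, at -1.26 and 1.20 on average.

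The bile acid and steroid enzymes held the deepest fall. Cyp7a1, the enzyme that sets the pace of bile acid production from cholesterol, had log2 ratios of -1.26 and -1.25, a mean of -1.26 ± 0.06 (SE of the fit, n = 2 arrays, adjusted p = 1.24e-12), or 2.39-fold lower. Its vehicle signal stood 10.1 and 9.58 times above the local background and its treated signal 3.02 and 2.64 times, so both channels were well measured. Cyp17a1, the steroid 17-alpha-hydroxylase, gave -0.59 and -0.54, a mean of -0.56 ± 0.06 (adjusted p = 1.36e-07). These were the only measured enzymes of the list, since the other 4 on the array, Cyp11a1, Cyp19a1, CYP11B1/2 and CYP21A2, did not meet the background criterion.

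The drug- and fatty-acid-metabolizing oxidases split. Cyp4a1, the fatty acid omega-hydroxylase and classic target of PPAR-alpha, gave -0.66 and -1.002, a mean of -0.83 ± 0.07 (adjusted p = 2.72e-08). The arrays agreed in direction and differed in size more than for most genes. Fmo5, a flavin-containing monooxygenase, gave -0.65 and -0.80, a mean of -0.73 ± 0.08 (adjusted p = 1.27e-07). Cyp3a9, a member of the steroid- and drug-oxidizing CYP3A family, gave -0.69 and -0.71, a mean of -0.70 ± 0.08 (adjusted p = 1.98e-07). In contrast, Cyp3a23-3a1 of the same family gave 0.14 and 0.20 and did not pass (adjusted p = 0.053). The phenobarbital-responsive CYP2B1/2 probe gave -0.003 and -0.06 (adjusted p = 0.77), with the treated channel not above background.

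Of the 7 CYP1, CYP2 and Fmo genes measured in both channels, 2 were higher, 1 lower and 4 did not pass, with a median of -0.10. Cyp2c12, the female-predominant P450 of rat liver, gave 0.26 on both arrays (mean 0.26 ± 0.09, adjusted p = 0.024). Cyp2c6v1 gave 0.20 and 0.15 (adjusted p = 0.039). Cyp2e1, the ethanol-inducible P450, gave -0.08 and -0.12 and did not pass (adjusted p = 0.29), with 1 usable spot on the second array. Cyp1a1, Cyp1b1 and Cyp2c11 had a treated channel not above background on either array and did not pass. Closely related P450 and glucuronosyltransferase genes can bind each other's cDNA probes, so the values of single family members are uncertain.

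Among conjugating enzymes, 10 were measured in both channels, of which 1 was higher, 2 were lower and 7 did not pass (median 0.11). UGT1A6, a glucuronosyltransferase for phenols, gave 0.15 and 0.34 (mean 0.24 ± 0.05, adjusted p = 0.0013). Ugt2b gave -0.19 and -0.26 (mean -0.23 ± 0.05, adjusted p = 0.0025), and the hydroxysteroid sulfotransferase probe HSST -0.18 and -0.17 (adjusted p = 0.039).

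Of the nuclear receptors for fatty acids, Ppard was higher and Pparg did not meet the background criterion. Ppard, the receptor PPAR-delta, gave 0.61 and 0.69, a mean of 0.65 ± 0.05 (adjusted p = 9.93e-10), and was the second-highest gene of the set. It was a dim probe, at 1.68 and 1.60 times background in the vehicle channel and 1.55 and 1.43 times in the treated channel. Ppara is carried by a pair of probes that disagreed. The brighter gave -0.24 and -0.23 (mean -0.23 ± 0.06, adjusted p = 0.0024), whereas the dimmer gave 0.12 and -0.09 (adjusted p = 0.94).

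The retinoid receptors themselves changed little. Rarb gave 0.17 and 0.24, a mean of 0.20 ± 0.07 or 1.15-fold (adjusted p = 0.023), at 1.65 and 1.76 times background in the vehicle channel. It passed in 10 of 17 alternatives. It did not pass without the first array (adjusted p = 0.089) or the second (adjusted p = 0.25), with pixel medians (0.14, adjusted p = 0.11), without background correction (0.08, adjusted p = 0.14), in the deposited ratios (0.10, adjusted p = 0.36), with array batch B alone (adjusted p = 0.16) or with its mean over the groups subtracted (0.12, adjusted p = 0.21). Rara gave -0.14 and -0.02 (adjusted p = 0.13), Rarg -0.16 and -0.03 (adjusted p = 0.13) and Rxra, the shared partner receptor, -0.20 and -0.15 (adjusted p = 0.063). Crabp2, which carries retinoic acid to the nucleus, did not meet the background criterion. Of the 3 retinoid genes measured in both channels, 1 was therefore higher and 2 did not pass.

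**Figure D2:**
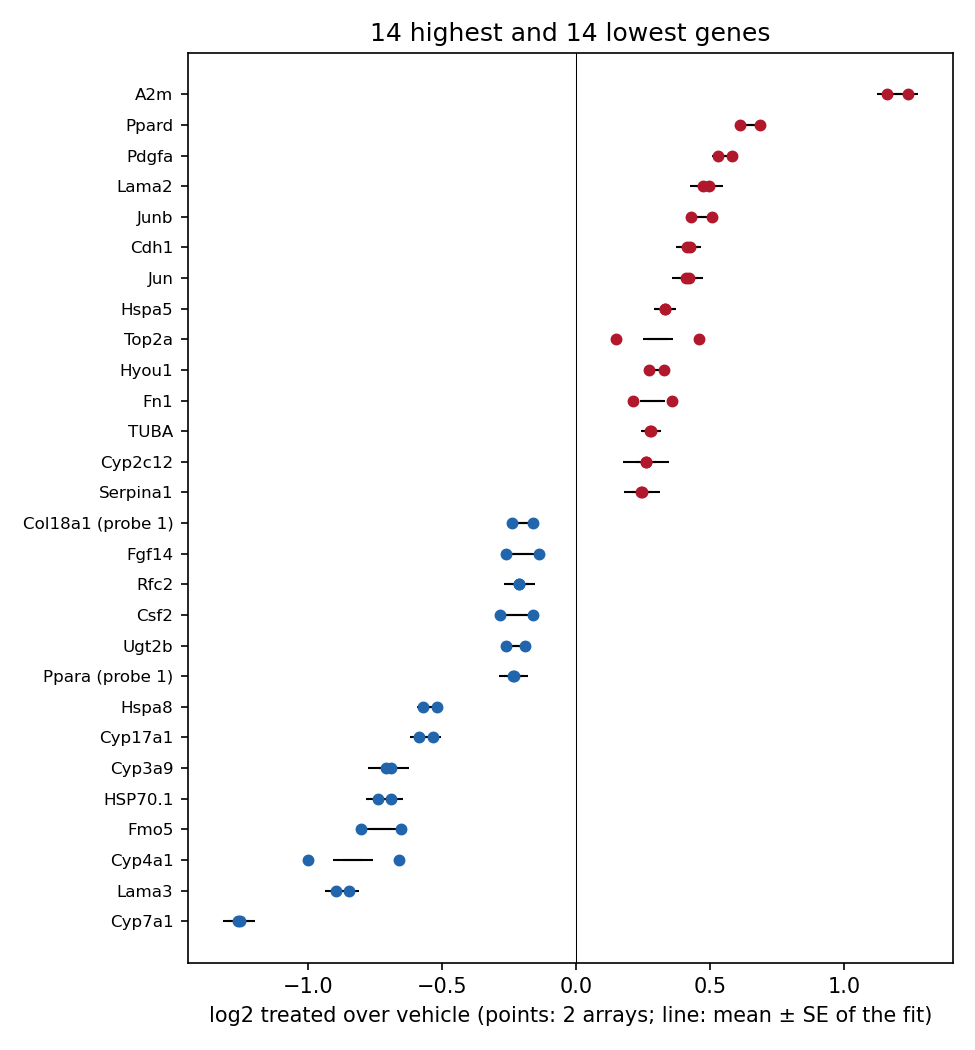
Log2 ratio of treated over vehicle for the 14 highest and 14 lowest genes that passed an adjusted p of 0.05 with the same sign on both arrays. Points are the 2 arrays and lines the mean ± SE of the fit. For HSP70.1, Csf2 and Fgf14 the treated channel was not above background on either array, so the size of their fall is uncertain. The arrays lie close together except for Top2a, at 0.46 and 0.15, and Cyp4a1, at -0.66 and -1.002.

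Of the plasma protein genes, A2m had a high ratio and Serpina1 a small one. A2m, alpha-2-macroglobulin, an acute-phase protease inhibitor of rat liver, had the highest ratio of the set, at 1.24 and 1.16 (mean 1.20 ± 0.08, adjusted p = 1.95e-11). It was also the brightest probe of both arrays, and its raw signals were similar in both channels, at 38681 for vehicle and 39535 for treated on the first array and 46279 and 38248 on the second. Its positive ratio is therefore relative to the other probes, whose deposited ratios had medians of -0.60 and -0.70. Centring each array on its median, in place of the intensity-dependent curve, gave 0.85, and the deposited ratios gave 0.51. No spot of these arrays reached the full scale of 65535, the brightest being at 48188 for vehicle and 45351 for treated. The pixel medians of the A2m spots lay between 30830 and 48268 for vehicle and between 26088 and 43770 for treated, below full scale, and whether single pixels within a spot were saturated was not tested. A2m was also bright on the day-12 and embryo liver arrays, with mean signals from 28309 to 41968. Serpina1, alpha-1-antitrypsin, gave 0.25 and 0.24 (mean 0.25 ± 0.07, adjusted p = 0.0064), and in the deposited ratios, centred on their median, -0.33 (adjusted p = 0.082). With median centring it gave 0.06 (adjusted p = 0.61), and it was called in 12 of 17 alternatives, not without either array.

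**Figure D3:**
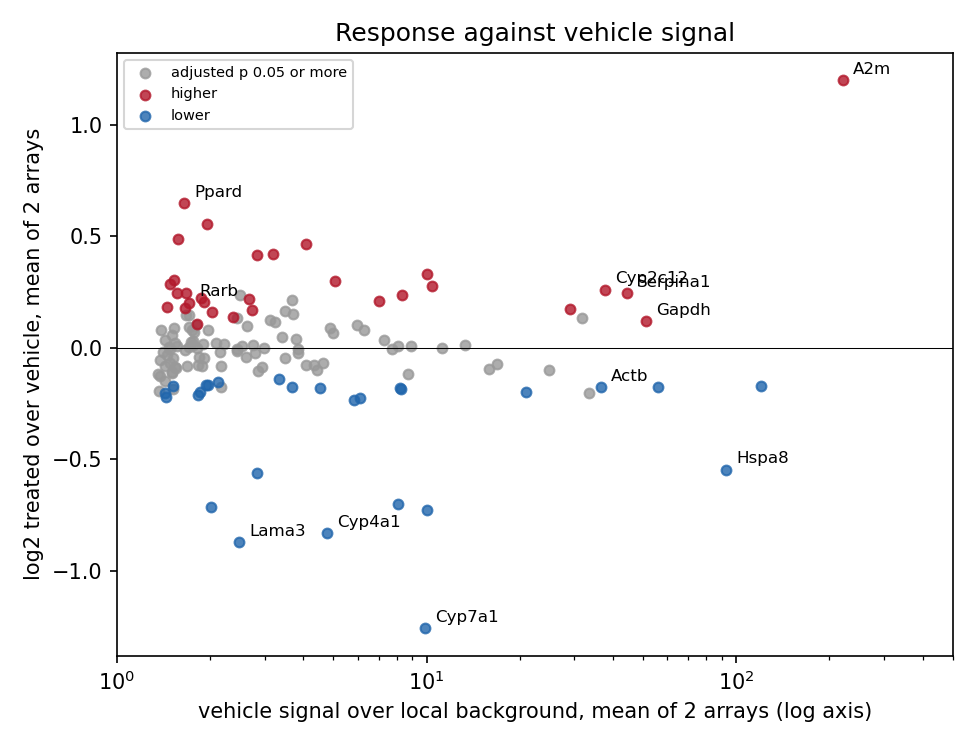
Mean log2 ratio of treated over vehicle (y axis) against the vehicle signal as a multiple of local background (x axis, log scale) for the 146 genes. Cyp7a1, at 10.1 and 9.58 times background, and Hspa8 fell at moderate and high signal, while A2m stands alone at 208 and 235 times background.

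The AP-1 subunits both rose. Junb gave 0.50 and 0.43 (mean 0.47 ± 0.06, adjusted p = 6.27e-07) and Jun 0.41 and 0.42 (mean 0.42 ± 0.06, adjusted p = 4.10e-06). Both encode immediate-early transcription factors that are induced by growth and stress signals. Among other transcription factors, Atf2 gave 0.31 and 0.18 (adjusted p = 0.00027) and Atf4, a factor of the amino acid and stress response, 0.26 and 0.21 (adjusted p = 6.38e-05).

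Chaperone and growth-arrest genes went both ways: of 9 measured in both channels, 2 were higher, 3 lower and 4 did not pass (median -0.01). The lower ones were Hspa8, Hsp90aa1 and Gadd45a. Hspa8, the constitutive cytosolic chaperone Hsc70, gave -0.52 and -0.57 (mean -0.55 ± 0.05, adjusted p = 4.48e-09). The stress-inducible HSP70.1 probe gave -0.74 and -0.69 (adjusted p = 1.58e-08). Its treated channel was not above background on either array, and the size of the fall depended on the background correction, with -0.35 without one and -0.38 in the deposited ratios. It did not pass where the day-12 groups were not split by array batch (adjusted p = 0.24). Other named genes that lost their call in that alternative were Fn1, Top2a, Serpina1, Cyp2c12, Cyp2c6v1, HSST, Cebpb, Lamc1, Itgb3, Itga9 and the brighter Col18a1 probe. In the endoplasmic reticulum, Hspa5 (BiP) gave 0.33 on both arrays (mean 0.33 ± 0.04, adjusted p = 7.61e-07) and its partner Hyou1 0.33 and 0.27 (mean 0.30 ± 0.04, adjusted p = 1.40e-06). The stress-response transcription factor Ddit3 did not pass, with a mean of 0.0007, and Gadd45a, a growth-arrest gene, was lower, at -0.15 and -0.21 (adjusted p = 0.0025). In the deposited ratios, centred on their median, Hspa5 and Hyou1 were at -0.15 and -0.10 and did not pass, and the rises of Ppard, Pdgfa, Jun, Junb and Cdh1 kept their sign but not their call.

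The hepatocyte transcription factors were close to 0. Of 5 measured, 0 were higher, 1 lower and 4 did not pass (median -0.07). Cebpb, a liver-enriched factor of the acute-phase response, gave -0.10 and -0.25 (adjusted p = 0.035). Hnf4a, which governs many hepatocyte genes, gave -0.15 and -0.09 (adjusted p = 0.15). The hepatocyte markers checked the tissue: all 7 on the array lay above background in both channels on both arrays, with a summed signal of 281 and 355 times background for vehicle and 291 and 307 for treated. Most of this was A2m, and the other 6 summed to 73.1 and 120 for vehicle and 43.2 and 60.9 for treated. These sums, and those of the other cell types below, are raw signals without normalization. The treated channel was the dimmer one over all probes, so a lower treated sum is no measure of a fall. Of the 7, 2 were called higher and 2 lower, from -1.26 to 1.20. Of the 4 stellate and fibroblast markers, 2 lay above background on both arrays in the vehicle channel and 2 in the treated channel. These were not the same 2, since Col3a1 was above background in the vehicle channel only. The sums were 6.48 and 7.55 for vehicle and 5.23 and 5.51 for treated. Of these 4, 2 were called higher, Dcn and Acta2, and whether a change in cell makeup contributed to them was not tested. Of 3 leukocyte and Kupffer cell markers, 1 was called higher, FCGR2C at 0.23 and 0.21 (adjusted p = 0.0043), with sums of 7.60 and 8.17 for vehicle and 5.49 and 5.41 for treated. The raw signal of FCGR2C was 2.41 and 2.93 times background for vehicle and 1.83 and 1.98 for treated, so its positive ratio is relative to the other probes. Of 4 endothelial markers 0 were called, from -0.08 to 0.10, with sums of 6.78 and 7.53 for vehicle and 5.09 and 5.28 for treated. Acan, the cartilage marker, was not above background on both arrays in either channel. Its probe was nonetheless called lower, at -0.16 (adjusted p = 0.0496), so a call can fall on a probe at background.

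Matrix genes of the basement membrane differed by chain. Lama3, the laminin alpha-3 chain, was the second-lowest gene at -0.90 and -0.85 (mean -0.87 ± 0.06, adjusted p = 4.51e-10), with a treated signal 1.22 and 1.20 times background. Lama2, the alpha-2 chain, gave 0.50 and 0.47 (mean 0.49 ± 0.06, adjusted p = 7.61e-07), and Lamc1, the common gamma-1 chain, 0.16 and 0.20 (adjusted p = 0.0094). The other 4 laminin probes did not meet the background criterion. Of 9 collagen, small proteoglycan and fibronectin probes measured in both channels, 4 were higher, 2 lower and 3 did not pass (median 0.14). Fn1, fibronectin, gave 0.21 and 0.36 (adjusted p = 3.57e-05) and Col4a1, a basement membrane collagen, 0.21 and 0.11 (adjusted p = 0.0019). Both probes of Col18a1, the collagen that yields endostatin, were lower, at -0.20 and -0.18 on average (adjusted p = 0.0023 and 0.0030). Timp2, an inhibitor of matrix metalloproteinases, was higher at 0.26 and 0.18 (adjusted p = 0.00095).

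Signalling and contact genes held a few rises, of which Pdgfa, Cdh1 and Tgfbr1 lost their call in the deposited ratios. Pdgfa, a platelet-derived growth factor chain, gave 0.53 and 0.58 (mean 0.55 ± 0.05, adjusted p = 5.03e-09), the only one called among 10 growth factor and receptor genes measured in both channels (median 0.06). Cdh1, E-cadherin, gave 0.42 and 0.41 (mean 0.42 ± 0.05, adjusted p = 1.36e-07), while among 9 integrin and contact probes 2 others, Itga9 and Itgb3, were lower. Tgfbr1, a TGF-beta receptor, gave 0.25 and 0.16 (adjusted p = 0.00049) and Bmp7 -0.16 and -0.20 (adjusted p = 0.0019). Top2a, a topoisomerase of dividing cells, was higher, at 0.46 and 0.15 (mean 0.30 ± 0.06, adjusted p = 0.00020), and did not pass without the first array. The reference genes were not flat: TUBA gave 0.28 on both arrays, Gapdh 0.11 and 0.13, and Actb -0.20 and -0.15, all past the threshold.

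The response on day 20 was compared with that of maternal liver on day 12, using the 2 day-12 arrays of the same array batch. Of 225 probes tested, 63 or 28% differed, and of the 146 included genes 25 were more positive and 29 more negative on day 20, where 12% and 16% of all probes tested were. The other 2 day-12 arrays, of array batch A, were left out. With all 4 day-12 arrays, 53 of the 63 differences stayed called and 2 changed sign. Cyp7a1 gave 0.87 and 0.96 on day 12 against -1.26 and -1.25 on day 20, a difference of -2.18 ± 0.09 (adjusted p = 2.56e-14) with opposite signs on the 2 days. Cyp3a9 did likewise, with 0.77 and 0.84 on day 12 (difference -1.504 ± 0.11, adjusted p = 4.15e-10). Ugt2b, at 1.20 and 1.19 on day 12, differed by -1.43 ± 0.07 (adjusted p = 1.95e-11). The AP-1 genes ran the other way. Junb gave -0.56 and -0.79 on day 12 (difference 1.14 ± 0.08, adjusted p = 1.14e-10) and Jun -0.51 and -0.68 (difference 1.01 ± 0.08, adjusted p = 9.61e-10). Rarb, at 0.25 and 0.24 on day 12, did not differ detectably (-0.04 ± 0.09, adjusted p = 0.80). Each day was read against its own vehicle RNA, and the sampling day and the time since dosing cannot be told apart.

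The response was then set against that of embryo liver on day 20, on 2 arrays of the same batch. Of 225 probes tested, 106 or 47.1% differed, and of the 145 included genes with a value 37 were more positive and 39 more negative in maternal liver, against 25.3% and 21.8% of all probes tested. Cyp7a1 was near 0 in embryo liver, at 0.02 and -0.09, a difference of -1.23 ± 0.09 (adjusted p = 1.30e-09). Cyp2e1 gave 1.16 and 0.97 in embryo liver (difference -1.16 ± 0.10, adjusted p = 6.41e-09) and Fmo5 0.12 and 0.50 (difference -1.04 ± 0.11, adjusted p = 1.15e-07). Rxra gave 0.52 on both embryo liver arrays, a difference of -0.69 ± 0.10 (adjusted p = 7.55e-06). Cyp17a1, at -0.48 and -0.41 in embryo liver, did not differ detectably (-0.12 ± 0.08, adjusted p = 0.23). In the other direction, Junb gave -0.51 and -0.24 in embryo liver (difference 0.84 ± 0.08, adjusted p = 2.94e-08) and Pdgfa -0.25 and -0.04 (difference 0.70 ± 0.07, adjusted p = 3.35e-08). A2m, at 0.08 and 0.11, differed by 1.10 ± 0.11 (adjusted p = 3.01e-08), a difference that did not pass when arrays were centred on their median (0.27) and was -0.33 in the deposited ratios.

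**Figure D4:**
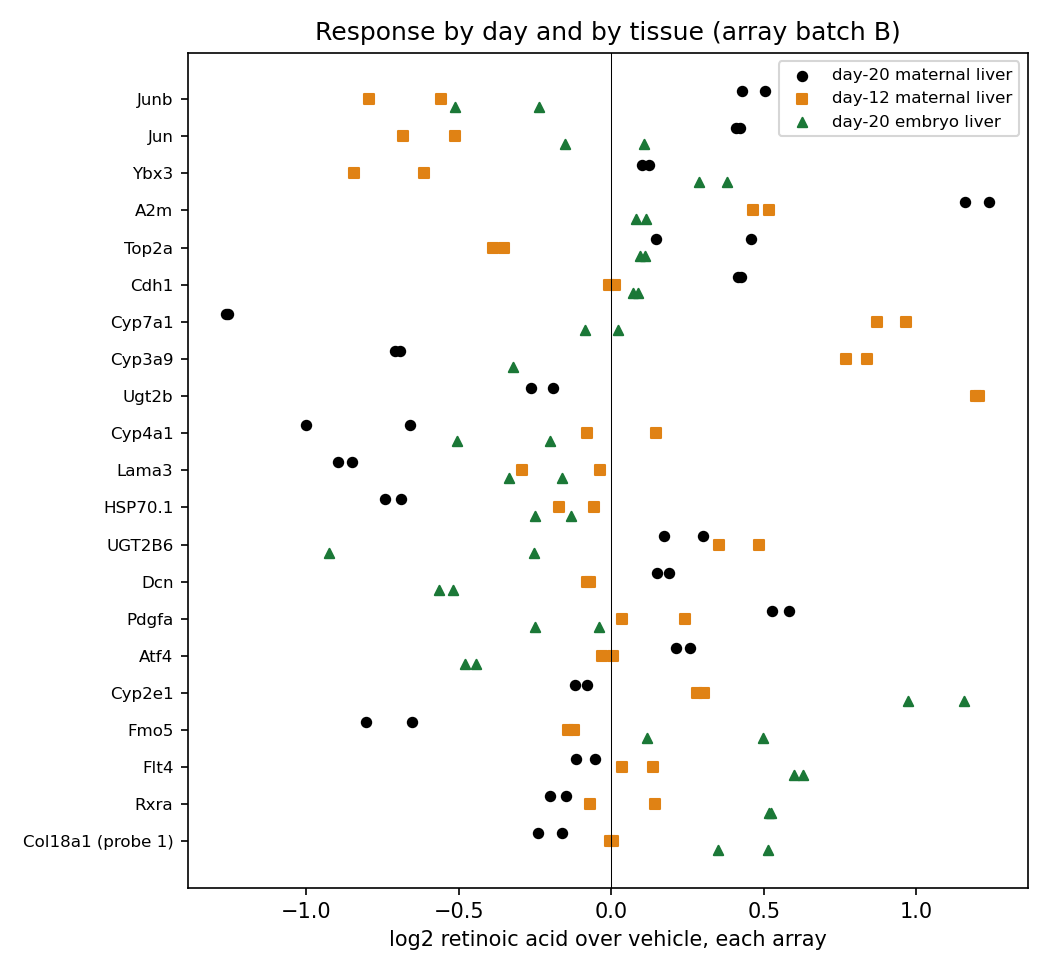
Log2 ratio of retinoic acid over vehicle on each array for genes that differed most by day or tissue, in day-20 maternal liver (circles), day-12 maternal liver (squares) and day-20 embryo liver (triangles). Cyp7a1 lies at -1.26 and -1.25 in day-20 maternal liver, near 0 in embryo liver and at 0.87 and 0.96 in day-12 maternal liver.

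The same tissue and day were also sampled with EMD 82571, but on another array batch, so compound and batch cannot be told apart and values are only set side by side. Cyp7a1 gave -0.50 and -0.51 at the low dose and 0.33 on the single array with a value at the high dose. Cyp17a1 was negative with each treatment, at -0.80 and -0.75 with the low dose and -0.50 and -0.46 with the high dose. Cyp3a9 was negative as well, at -0.57 and -0.53 and at -0.89 and -0.73. CYP2B1/2, close to 0 with retinoic acid, gave -0.08 on both arrays at the low dose and 0.78 and 0.75 at the high dose. A2m gave -0.17 and -0.16 at the low dose and -0.003 and -0.02 at the high dose. HSP70.1 was negative on all 6 arrays, between -0.74 and -0.41. For HSP70.1 and for Cyp17a1, a dye preference of the probe cannot be told apart from a response. With the mean of each gene over all groups subtracted, the values were -0.75 for HSP70.1 in place of -0.72 and -1.18 for Cyp7a1 in place of -1.26. Cyp17a1 gave -0.27 in place of -0.56, and all were past the threshold. The subtracted mean holds responses of the groups as well as any dye preference, so it cannot separate them.

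**Figure D5:**
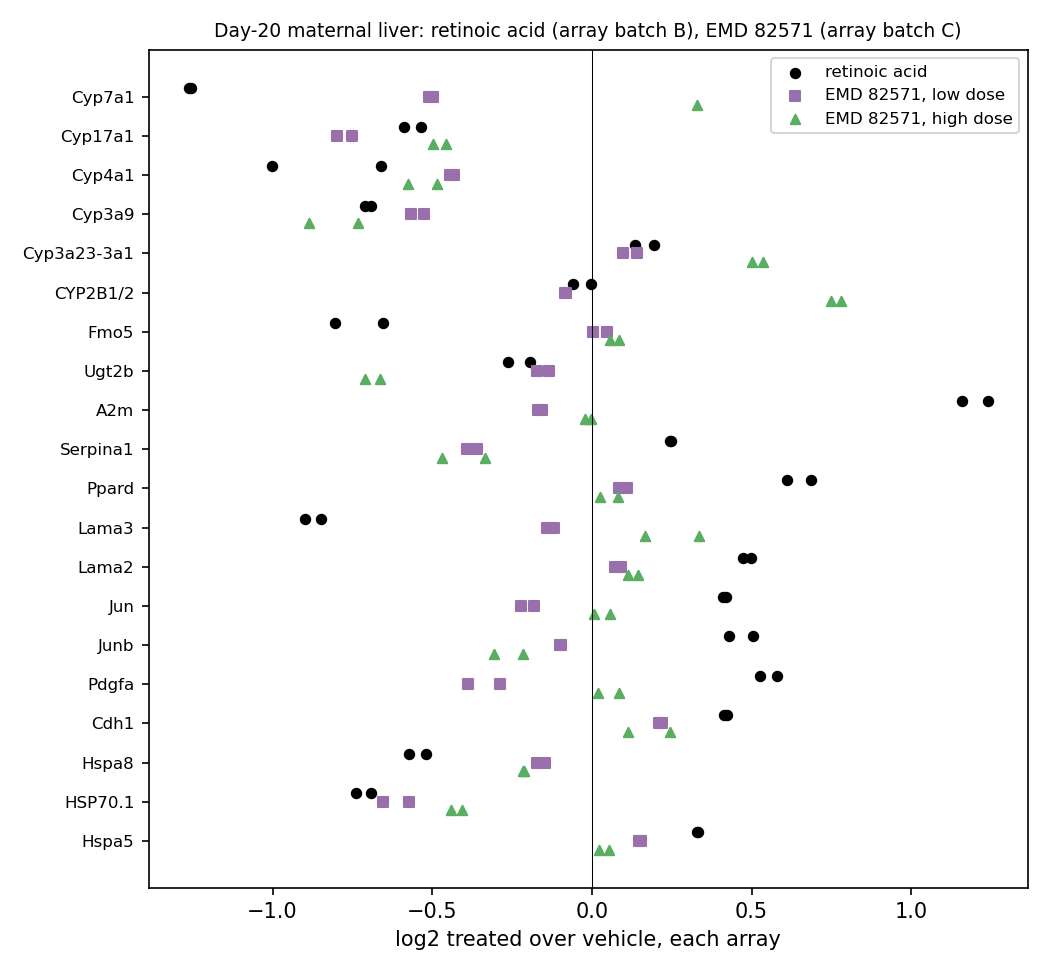
Log2 ratio of treated over vehicle on each array of day-20 maternal liver, for 20 genes chosen after their values had been seen, with retinoic acid (circles, array batch B) and EMD 82571 at the low (squares) and high (triangles) dose (array batch C). Cyp17a1, Cyp4a1, Cyp3a9, Ugt2b, Hspa8 and HSP70.1 lie below 0 with each treatment, while Ppard, Pdgfa and A2m lie above 0.5 with retinoic acid.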

How the data were processed

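The deposited spot files hold the intensity of each spot and its local background for each channel, without background subtraction, per the file headers. The deposited series table holds log2 ratios that follow the unsubtracted, uncentred intensities. Each array has 4 blocks of 256 positions, so 4 spots per probe. Gene names come from the files and were matched to RefSeq symbols, with names that stand for several genes kept as written. Members and lists were chosen with earlier results of these data known.

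Pixel means were corrected with normexp (limma 3.58.1, R 4.3.3, offset 50), turned into log2 ratios of Cy5 over Cy3 and normalized by loess within each array, and unmarked spots were averaged. A spot was above background where it exceeded the local background by 2 SD, and a probe where a share of 0.5 of its spots did, dim spots included. Limma fitted all 34 arrays with 17 group means, the day-12 retinoic acid groups being split by array batch. P-values are two-sided, adjusted by Benjamini-Hochberg within a comparison, with 0.05 as the threshold. The array number limits precision.

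Named are the 14 highest and 14 lowest called genes with equal signs on both arrays, up to 4 of each of 17 lists, fixed genes, and up to 6 differences each way. A few others were chosen after their values were seen, and 1 gene that the rule names is not reported here. Alternatives changed background, normalization, filters, spots, arrays and batches. The fit was tested on simulated data. It called all 30 genes with a true log2 change of 1 and all 30 with 0.5. Their median estimates were 0.76 and 0.35, so the sizes came out too small. Of 169 unchanged genes, 4 were called.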

Additional observations from a re-analysis of the deposited data

Results flagged for a closer look

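The genes below were singled out because their response differed between groups in a test of the difference itself, with arrays that did not overlap. For day 20 minus day 12 in maternal liver, the differences in log2 ratio were 1.14 for Junb, 1.01 for Jun, 0.84 for Ybx3, 0.71 for A2m, 0.67 for Top2a and 0.42 for Cdh1. In the other direction they were -2.18 for Cyp7a1, -1.504 for Cyp3a9, -1.43 for Ugt2b, -0.86 for Cyp4a1, -0.71 for Lama3 and -0.60 for HSP70.1. Of these 12, A2m lost its call with median centring (0.28) and with the deposited ratios (0.13), and Cdh1 with the deposited ratios (0.24). Ybx3, a cold-shock-domain protein, was not called on day 20 itself, at 0.12 and 0.10, and gave -0.61 and -0.84 on day 12.

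For maternal minus embryo liver on day 20, the differences were 1.10 for A2m, 0.84 for Junb, 0.83 for UGT2B6, 0.71 for Dcn, 0.70 for Pdgfa and 0.70 for Atf4. In the other direction they were -1.23 for Cyp7a1, -1.16 for Cyp2e1, -1.04 for Fmo5, -0.70 for Flt4, -0.69 for Rxra and -0.63 for the dimmer probe of Col18a1. UGT2B6, Pdgfa and Flt4 had a value in 8 of the 9 alternatives, and the other genes in all 9. A2m did not pass with median centring (0.27). With the deposited ratios, A2m, Junb, UGT2B6, Dcn, Atf4 and Flt4 lost their calls, whereas Cyp7a1, Cyp2e1, Fmo5, Rxra, Pdgfa and that probe of Col18a1 kept them wherever they had a value.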

How the results depend on the processing

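Of 42 named genes called for retinoic acid on day 20, 10 stayed called in every alternative run: A2m, Lama2, Cyp7a1, Lama3, Cyp4a1, Fmo5, Cyp3a9, Cyp17a1, Hspa8 and Actb. Cyp7a1 ranged from -1.43 to -1.07. Against 70 calls, 46 remained without the split of the day-12 groups by array batch, an alternative chosen after seeing the data that puts arrays of 2 batches into 1 group, and leaving out 1 array gave 34 to 39. For the difference from day 12, the deposited ratios gave 22 calls against 63. For the difference from embryo liver, the filter to both channels on every array gave 65 of 107 against 106 of 225. The deposited ratios, which have no background correction or loess curve, split the day-20 calls into 28 higher and 49 lower, against 35 and 35, the difference from day 12 into 5 and 17, and that from embryo liver into 46 and 67. Only 23 of the 70 day-20 calls stayed called in them and 21 changed sign, 13 of the 35 higher and 8 of the 35 lower, the most sign changes and the fewest calls kept of any alternative run. Their sign was opposite for Hspa5 (-0.15), Hyou1 (-0.10), TUBA (-0.13), Cyp2c12 (-0.21), Serpina1 (-0.33), Cyp2c6v1 (-0.30), Ppara probe 2 (-0.24), Lamc1 (-0.033) and Tgfbr2 (-0.21), and in the difference from embryo liver for A2m (-0.33) and Atf4 (-0.22). Crabp2 gave 0.46 with median centring, and Csf2 0.019 with each gene's mean over the groups subtracted. Median centring moved the median difference from embryo liver to 0.16, with 96 higher and 55 lower against 57 and 49, and split the difference from day 12 into 14 and 30 against 27 and 36. The causes were not tested. No paired analysis was possible because each ratio already pairs both RNAs on 1 array and the labels number no replicates. Dim probes limit the depth: 86 of 232 lay below the background criterion.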
